A study of Mus musculus with 6 samples.

Results

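CXC chemokines are small secreted proteins, named for a pair of cysteines parted by 1 residue, that direct the movement of leukocytes. The 9 genes described here, Cxcl1, Cxcl2, Cxcl3, Cxcl5, Cxcl9, Cxcl10, Cxcl16, Pf4 and Ppbp, were chosen by symbol from the 52459 genes of the deposited tables. They were measured by RNA sequencing in 3 libraries of cells given RIP1i, an inhibitor of the kinase RIP1, and 3 libraries of cells given DMSO, the solvent. All 6 libraries came from C57BL/6 mouse marrow cultured with the cytokine GM-CSF and labelled as macrophages, to which RIP1i or DMSO was added overnight on day 7. Neither the RIP1i compound nor its dose is named, and nothing says whether replicates were separate cultures or animals, so the p-values speak only of how these 6 libraries differ, a spread that may be technical.

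The family falls into groups by receptor and by inducer. Cxcl1, Cxcl2, Cxcl3 and Cxcl5 encode ligands of the receptor CXCR2 that draw neutrophils, and their transcription responds to NF-kB, a factor downstream of the TNF receptor and RIP1. Ppbp, also a source of a CXCR2 ligand, and Pf4 are best known from platelet granules. Cxcl9 and Cxcl10 encode interferon-induced ligands of CXCR3 that draw T cells. Cxcl16 encodes a chemokine anchored in the membrane that binds CXCR6 on T cells and also takes up oxidised lipids, and it is known from macrophages and dendritic cells.

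Library totals ran from 40264902 to 44862310 counts. All 7 macrophage markers examined were above the filter on low counts. Their summed levels were 44993 to 54067 CPM (read counts scaled by library size and TMM factors) in RIP1i and 51522 to 59136 CPM in DMSO. Most of each sum was Lyz2 alone, at 39866 to 49299 CPM in RIP1i and 46366 to 54100 CPM in DMSO. The T cell marker Cd3e had at most 1 count in any library. The libraries differed in markers of other cell types. The 10 stromal (fibroblast) markers, collagens among them, summed to 220.5, 72.8 and 173 CPM in RIP1i replicates 1 to 3 and to 194, 344 and 79.7 CPM in DMSO replicates 1 to 3. The 10 neutrophil markers summed to 467, 660.4 and 225 CPM in RIP1i and 459.97, 228 and 628 CPM in DMSO, and none of the markers of either list was at 0 in every library. Dendritic cell markers summed to 1313 to 1440 CPM in RIP1i and 1205 to 1355 CPM in DMSO, and those of mast cells and basophils to 10.4 to 18.1 CPM and 5.72 to 16.9 CPM. T and NK cell markers summed to 1.71 to 2.11 CPM in RIP1i and 1.78 to 2.19 CPM in DMSO, and B cell markers to 0.594 to 0.749 CPM and 0.641 to 0.899 CPM. DMSO replicate 2 thus had the highest stromal marker level and RIP1i replicate 2 the lowest, so the fold change of each tested chemokine is given with and without them. In such bulk libraries, fewer cells of a type and less RNA per cell cannot be told apart.

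All of these chemokine genes but Cxcl16 lie on mouse chromosome 5, in the build GRCm38 (mm10) and the GENCODE M21 annotation. Cxcl5 (90759360 to 90761624), Ppbp (90768518 to 90770063), Pf4 (90772435 to 90773383), Cxcl3 (90786103 to 90789600), Cxcl1 (90891241 to 90893115) and Cxcl2 (90903871 to 90905938) follow one another on the plus strand. Cxcl9 (92321347 to 92328079) and Cxcl10 (92346638 to 92348889) lie farther along on the minus strand. Cxcl16 lies on chromosome 11 (70453983 to 70459984, minus strand).

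The bases just before the transcript start of Cxcl1, Cxcl2, Cxcl3 and Cxcl10 are shown because these members are known for NF-kB and interferon control. The sequences are from RefSeq on GRCm38.p6, read 5′ to 3′ on the gene's strand and ending at the base before the RefSeq start. Distances below are to that start, which can differ from the GENCODE start given above. For Cxcl2 it is 90903899 in RefSeq and 90903871 in GENCODE, so the end of that stretch lies within the GENCODE gene. For Cxcl1 the starts are 90891245 and 90891241. Capitals mark matches, on either strand, of the core of an NF-kB element (GGG, any 5 bases, CC) or of an interferon response element (GAAA, any 2 bases, GAAA). The stretches lie at chr5:90891125-90891244, chr5:90903779-90903898 and chr5:90785981-90786100 on the plus strand and chr5:92348890-92349139 on the minus strand, in the order printed.
Cxcl1: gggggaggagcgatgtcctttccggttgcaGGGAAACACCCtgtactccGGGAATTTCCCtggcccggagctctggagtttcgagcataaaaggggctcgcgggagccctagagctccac
Cxcl2: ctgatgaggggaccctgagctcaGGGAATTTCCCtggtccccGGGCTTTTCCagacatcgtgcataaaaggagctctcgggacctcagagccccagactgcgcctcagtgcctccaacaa
Cxcl3: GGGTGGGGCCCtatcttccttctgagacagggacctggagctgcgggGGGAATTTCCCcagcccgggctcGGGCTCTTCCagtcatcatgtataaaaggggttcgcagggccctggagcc
Cxcl10: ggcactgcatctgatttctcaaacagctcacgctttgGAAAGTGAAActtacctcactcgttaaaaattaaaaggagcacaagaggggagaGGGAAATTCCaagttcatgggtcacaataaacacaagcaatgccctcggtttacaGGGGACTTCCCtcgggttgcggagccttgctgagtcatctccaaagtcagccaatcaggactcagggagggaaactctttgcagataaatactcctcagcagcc
The 10 letters GGGAATTTCC, a spelling of the first motif chosen after the sequences were seen, stood in the promoters of Cxcl1, Cxcl2 and Cxcl3, with the last base 62, 88 and 64 bases before the start. They stood in 28 of 32851 promoter windows of 250 bases (0.0852%), whereas the NF-kB core in any spelling stood in 45.8%. Cxcl10 carried GAAAGTGAAA ending 204 bases before its start, a match of the interferon core, which stood in 2.98% of windows, and it also carried the NF-kB core; 1.01% of windows held both. No match of one motif overlapped a match of the other in the promoters of these genes. The table held promoters for 7 of the 9 genes; Cxcl9 had matches of the NF-kB core alone, and Pf4 and Ppbp had neither motif within 250 bases. A match describes the letters and is not a measured binding site.

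Cxcl16 was by far the highest of these chemokines, and its level was nearly the same in every library. It stood at 107.1, 94.5 and 108.9 FPKM in RIP1i replicates 1 to 3 and at 98.4, 100.6 and 100.9 FPKM in DMSO replicates 1 to 3 (FPKM, the deposited level per gene length). Averaged over the 6 libraries, 97.2% of the 14857 genes that passed the filter had a lower FPKM level. Pf4 came next at 22.6 FPKM on average, above 85.5% of tested genes, and the ranges of Cxcl16 and Pf4 did not overlap. The other 7 chemokines lay below the median of the tested genes, which was 3.89 FPKM.

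**Figure D1:**
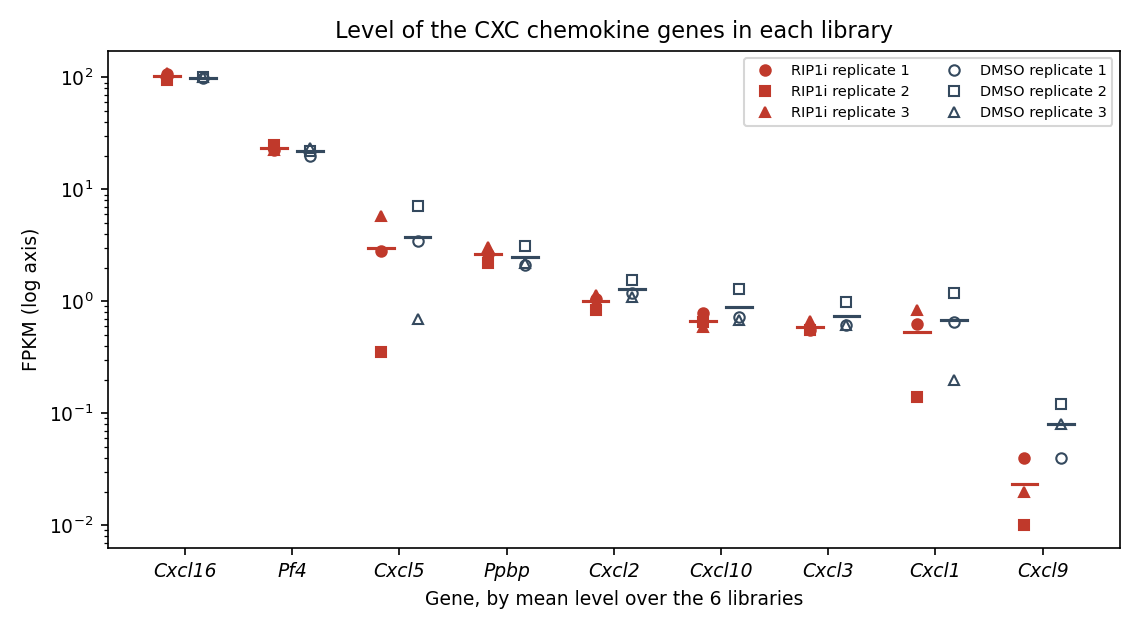
Level of each CXC chemokine gene in FPKM on a log axis, with 3 RIP1i libraries (filled) left of 3 DMSO libraries (open) and a line at each group's mean. Cxcl16 and Pf4 form tight clusters, while Cxcl5 and Cxcl1 spread widely within both groups, with RIP1i replicate 2 and DMSO replicate 3 low.

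Below these, the order by mean FPKM level was Cxcl5 at 3.38, Ppbp at 2.56, Cxcl2 at 1.142, Cxcl10 at 0.783, Cxcl3 at 0.663, Cxcl1 at 0.607 and Cxcl9 at 0.0517. Cxcl5 and Ppbp could not be ordered, because Cxcl5 ran from 0.35 to 7.13 FPKM over the 6 libraries and Ppbp from 2.11 to 3.14 FPKM. The range of Cxcl5 also held those of Cxcl2, Cxcl10 and Cxcl3 and overlapped that of Cxcl1. Ppbp was above Cxcl2 in every library without overlap of their ranges. Cxcl2, Cxcl10, Cxcl3 and Cxcl1 formed a group with overlapping ranges, and Cxcl3 was above Cxcl1 in 2 of 6 libraries. Cxcl9 stayed below Cxcl1 in all 6 libraries with no overlap, at 0.01 to 0.12 FPKM.

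Given RIP1i, none of the tested chemokines changed past the threshold. Of the 9 genes, 8 passed the filter on low counts and Cxcl9 did not. With edgeR's quasi-likelihood test, 0 of 8 had an adjusted p under 0.05, against 0% of all tested genes, and 0 of 8 had an unadjusted p under 0.05, against 6.21%. Limma-voom also called 0 of the 8 at either threshold. DESeq2 gave 0 of 8 at the unadjusted threshold, and an adjusted p for 2 of them alone, Cxcl16 and Pf4, neither called; for the other 6 it gave none. The RIP1i and DMSO libraries overlapped for each of the 8, while they did not overlap for 13.5% of all tested genes, with RIP1i lower throughout for 6.18% and higher throughout for 7.36%. By fitted sign, 3 were higher and 5 lower in RIP1i, where 49% of all tested genes were fitted lower. Their median log2 fold change (RIP1i minus DMSO) was -0.31, beside 0.0025 over all tested genes and -0.43 over the 10 stromal markers, all fitted lower. Without DMSO replicate 2 the median of the 8 was 0.078, with 5 fitted higher and 3 lower, and that of the stromal markers was 0.14. Without RIP1i replicate 2, when Cxcl9 also passed the filter, the median of the 9 was 0.045, and without both libraries that of the 8 was 0.082. These medians, that of the stromal markers included, were bound to rise, as were most single fold changes without these libraries. DMSO replicate 2, left out for its highest stromal marker level, was the highest DMSO library in CPM for each tested chemokine but Pf4. RIP1i replicate 2 was the lowest RIP1i library for each but Pf4 and Cxcl10. The part of stromal cells in the chemokine median was not tested.

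**Figure D2:**
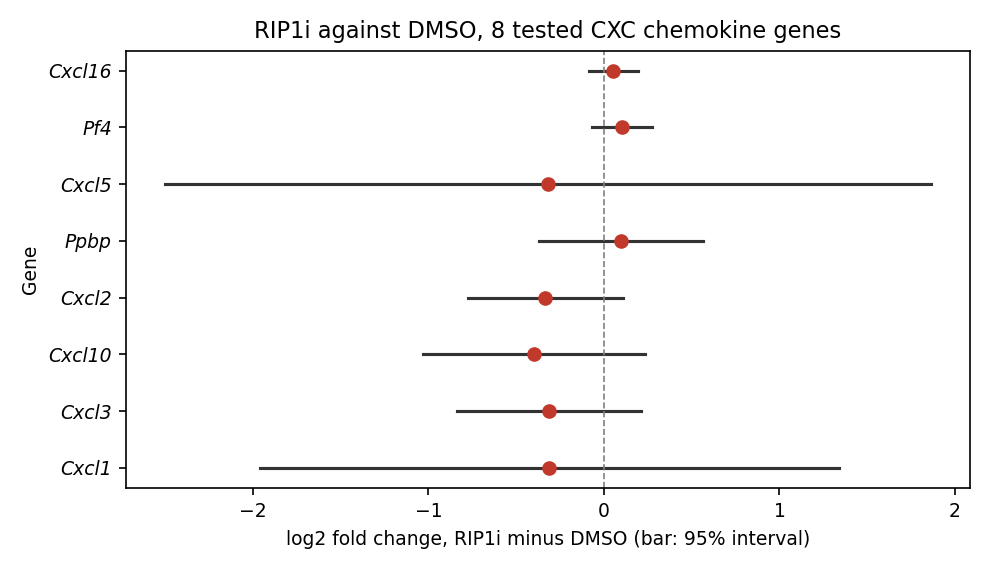
Fitted log2 fold change of RIP1i against DMSO (points) with 95% intervals (bars) for the 8 tested genes, ordered by level. Every interval spans 0; those of Cxcl16 and Pf4 are narrow, and those of Cxcl5 and Cxcl1 reach from -2.502 to 1.87 and from -1.96 to 1.34.

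Among the neutrophil attractants, Cxcl5 varied most, and it varied within each group rather than between them. It had 213, 27 and 453 counts in RIP1i replicates 1 to 3 and 289, 535 and 59 counts in DMSO replicates 1 to 3, or 5.28, 0.641 and 10.9 CPM against 6.50, 13.3 and 1.30 CPM. RIP1i replicate 2 was lowest and DMSO replicate 2 highest, a 20.8-fold span in CPM, and the groups overlapped throughout. The coefficient of variation over the 6 libraries was 80.2%, where counting error at this depth alone would give 6.17%. Means were 5.62 ± 5.16 CPM in RIP1i and 7.04 ± 6.02 CPM in DMSO (SD, n = 3 each), a log2 fold change of -0.32 ± 0.94 (SE) with an edgeR adjusted p of 0.963. The 95% interval ran from -2.502 to 1.87, a fold of 0.176 to 3.64.

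Cxcl1 followed the same library order at a lower level. Its counts were 48, 11 and 66 in RIP1i and 54, 89 and 17 in DMSO, and its levels were 1.19, 0.261 and 1.59 CPM in RIP1i against 1.21, 2.21 and 0.376 CPM in DMSO. Again RIP1i replicate 2 and DMSO replicate 3 were low and DMSO replicate 2 was high, with overlap between the groups. The log2 fold change was -0.31 ± 0.71 (SE), with a 95% interval from -1.96 to 1.34 and an edgeR adjusted p of 0.947. Across the 6 libraries, each of which gave both values under 1 scaling, the log2 CPM levels of Cxcl1 and Cxcl5 had Pearson's r of 0.99 and Spearman's rho of 1, given as a description. Without both libraries of extreme stromal level, r was 0.99 over the 4 left. Per length, Cxcl5 stood above Cxcl1 in all 6 libraries, by up to 6.93 times in RIP1i and up to 6.04 times in DMSO.

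Stromal markers moved with both genes. The stromal marker level (mean centred log2 CPM of the 10 markers) had r = 0.96 with Cxcl1 and r = 0.93 with Cxcl5 over 6 libraries, with rho of 0.77 for each. RIP1i replicate 2 and DMSO replicate 3 were the pair of libraries farthest from the median stromal level. Without them, r over the 4 left was 0.75 for Cxcl1 and 0.51 for Cxcl5, with DMSO replicate 2 kept. The neutrophil marker level ran the other way, with r = -0.87 for Cxcl1 and r = -0.88 for Cxcl5, and rho of -1 for each. Without RIP1i replicate 3 and DMSO replicate 2, the pair of libraries farthest from the median neutrophil level, r was -0.999 and -0.998 over the 4 left. The stromal and neutrophil levels themselves had r = -0.78, so the libraries that were rich in one were poor in the other. The part of either cell type in the level of Cxcl1 and Cxcl5 was not tested.

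**Figure D3:**
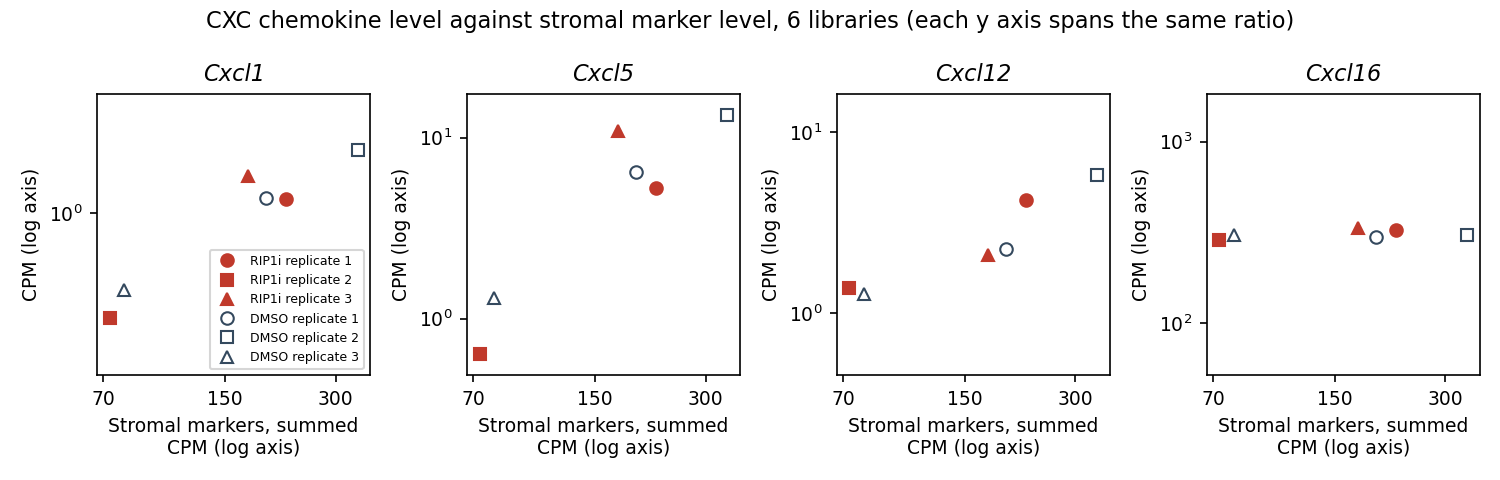
CPM of Cxcl1, Cxcl5, Cxcl12 and Cxcl16 in each library against the summed CPM of 10 stromal markers, on log axes whose y range spans the same ratio; filled symbols are RIP1i and open ones DMSO. RIP1i replicate 2 and DMSO replicate 3 are at the low end and DMSO replicate 2 at the high end for Cxcl1, Cxcl5 and Cxcl12, whereas Cxcl16 is level.

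Leaving out DMSO replicate 2 and RIP1i replicate 2, the libraries with the highest and lowest stromal level, turned the fitted log2 fold change to 0.80 for Cxcl1 and 1.05 for Cxcl5, with edgeR adjusted p of 0.634 for each. Cxcl1 and Cxcl5 were themselves at their maximum in DMSO replicate 2 and at their minimum in RIP1i replicate 2, so the difference without them was bound to be greater. Without DMSO replicate 2 alone the values were 0.34 and 0.52, and without RIP1i replicate 2 alone 0.14 and 0.21. Without RIP1i replicate 3 they were -0.80 and -1.25, and without DMSO replicate 3 they were -0.76 and -0.82. A direction for RIP1i could therefore not be read for Cxcl1 or Cxcl5.

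Cxcl2 and Cxcl3 varied far less. Cxcl2 had 88, 73 and 98 counts in RIP1i and 110, 129 and 102 counts in DMSO, or 2.18, 1.73 and 2.37 CPM against 2.47, 3.21 and 2.25 CPM. The highest RIP1i library lay above the lowest DMSO library, so the groups overlapped by a small margin. Its log2 fold change of -0.34 ± 0.19 (SE), with an interval from -0.78 to 0.11, had the smallest unadjusted p of the 8 genes, 0.117 in edgeR, and an adjusted p of 0.794. Without DMSO replicate 2 it was -0.18, and without both libraries of extreme stromal level it was -0.068.

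Cxcl3 had 78, 81 and 98 counts in RIP1i and 96, 140 and 96 counts in DMSO, or 1.93, 1.92 and 2.37 CPM against 2.16, 3.48 and 2.12 CPM. DMSO replicate 2 stood above the other 5 libraries, and the groups overlapped. Its log2 fold change of -0.32 ± 0.22 (SE), with an interval from -0.84 to 0.21, was -0.051 without that library and -0.0056 without both libraries of extreme stromal level. Cxcl2 and Cxcl3 had r = 0.89 with each other over 6 libraries, and 0.66 over the 4 left without the pair farthest from the median Cxcl3 level. With the stromal marker level Cxcl2 had r = 0.86 and Cxcl3 0.71, or 0.87 and 0.84 without RIP1i replicate 2 and DMSO replicate 3. With the neutrophil marker level Cxcl2 had r = -0.77 and Cxcl3 -0.81, or -0.76 and -0.27 without RIP1i replicate 3 and DMSO replicate 2. The part of either cell type in their levels was not tested. Their transcripts share 126 stretches of 50 bases, of 2159 in Cxcl2 (5.84% shared with any other gene) and 3587 in Cxcl3 (4.24%), and how reads that match both were counted is not given in the sources used here. The part of shared reads in the likeness of these 2 genes was not tested.

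Ppbp and Pf4, neighbours within the cluster, varied unlike each other across libraries. Pf4 had 655, 756 and 685 counts in RIP1i and 645, 643 and 761 counts in DMSO, or 16.2, 17.9 and 16.5 CPM against 14.5, 16.0 and 16.8 CPM. Its coefficient of variation of 6.91% was close to that of Cxcl16 at 5.65%, and the groups overlapped. The log2 fold change was 0.10 ± 0.073 (SE), with an interval from -0.070 to 0.27 and an edgeR adjusted p of 0.834. In fold terms the interval runs from 0.952 to 1.21, and the value was 0.053 without both libraries of extreme stromal level.

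Ppbp had 116, 101 and 138 counts in RIP1i and 102, 137 and 107 counts in DMSO, or 2.88, 2.40 and 3.33 CPM against 2.29, 3.41 and 2.36 CPM. DMSO replicate 2 and RIP1i replicate 3 were the highest, and the groups overlapped. Its log2 fold change was 0.096 ± 0.20 (SE), with an interval from -0.37 to 0.56, and it was 0.29 without DMSO replicate 2 and 0.40 without both libraries of extreme stromal level (edgeR adjusted p = 0.602). Without RIP1i replicate 3 or DMSO replicate 1 it was -0.030 or -0.019, so its sign rested on single libraries. Ppbp and Pf4 had r = 0.032 with each other. Over the 6 libraries Ppbp had r = -0.91 with the neutrophil marker level and 0.69 with the stromal marker level. The neutrophil value was -0.37 without RIP1i replicate 3 and DMSO replicate 2, the pair farthest from the median neutrophil level. The stromal value was 0.43 without RIP1i replicate 2 and DMSO replicate 3, the pair farthest from the median stromal level. Pf4 had r = 0.28 with the neutrophil and -0.64 with the stromal marker level, or 0.87 and 0.090, each without its own pair.

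Other platelet and megakaryocyte genes were mostly near the limit of detection, and 5 of 10 passed the filter. Gp9, Gp1ba, Gp1bb and Gp6, which encode platelet surface glycoproteins, had 0 to 13 counts in the RIP1i libraries and 1 to 13 in the DMSO libraries. None of the 10 was at 0 in every library, and the list summed to 225 to 247 CPM in RIP1i and 223 to 232 CPM in DMSO, nearly all of it Vwf at 230.2 ± 11.8 CPM in RIP1i and 218 ± 4.77 CPM in DMSO (SD, n = 3 each). The integrin gene Itga2b stood at 4.14 ± 0.471 and 4.41 ± 0.345 CPM in RIP1i and DMSO. Per length, Gp9 stood at 0.14 to 0.17 FPKM in RIP1i and 0.10 to 0.34 FPKM in DMSO. Vwf, the highest of the list per length, stood at 13.41 to 15.04 FPKM in RIP1i and 13.37 to 13.98 FPKM in DMSO. Pf4 stood at 22.46 to 24.97 FPKM in RIP1i and 20.04 to 23.4 FPKM in DMSO. Of the 5 tested, 1 was fitted higher and 4 lower, with a median log2 fold change of -0.47, where 49% of all tested genes were fitted lower. Without both libraries of extreme stromal level the median was -0.0017. In edgeR 1 gene of the list had an unadjusted p under 0.05, beside 6.21% of all tested genes, and 0 passed. That was Treml1, a receptor gene of platelet granules, at -0.47 ± 0.16 (SE, edgeR adjusted p = 0.777). Its unadjusted p was 0.0199 in edgeR, 0.0206 in limma-voom and 0.0812 in DESeq2. The part of platelets or megakaryocytes in the levels of Pf4 and Ppbp was not tested.

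The interferon-induced pair stood low in this culture. Cxcl10 had 71, 61 and 56 counts in RIP1i and 72, 116 and 69 counts in DMSO, or 1.76, 1.45 and 1.35 CPM against 1.62, 2.89 and 1.53 CPM. DMSO replicate 2 stood alone at the top, and the other 5 libraries lay together with the groups overlapping. The log2 fold change of -0.40 ± 0.27 (SE), with an interval from -1.03 to 0.24 and an edgeR adjusted p of 0.821, was the largest in size among the 8 tested genes. It was -0.055 without DMSO replicate 2, -0.37 without RIP1i replicate 2 and -0.028 without both. Over the 6 libraries Cxcl10 had r = 0.74 with the stromal and -0.50 with the neutrophil marker level. The stromal value was 0.995 over the 4 left without RIP1i replicate 2 and DMSO replicate 3. The neutrophil value was -0.89 over the 4 left without RIP1i replicate 3 and DMSO replicate 2. The part of either cell type in the level of Cxcl10 was not tested. Art3, a gene that overlaps Cxcl10 on the opposite strand, had at most 4 counts in any library, so its reads are few beside those of Cxcl10.

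Cxcl9 was too low to test, with 5, 1 and 3 counts in RIP1i and 5, 15 and 11 counts in DMSO. The highest RIP1i library and the lowest DMSO library had equal counts, so the groups met without separating. In CPM these were 0.124, 0.0238 and 0.0725 against 0.112, 0.373 and 0.243, where 3 counts, the limit that a count of 0 allows, correspond to 0.0663 to 0.0747 CPM. RIP1i replicates 2 and 3 lay at or under their limits, and this limit covers counting error only.

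The genes that carry interferon signals to Cxcl9 and Cxcl10 were well expressed with the exception of the interferons themselves. Ifng had 0 counts in every library and Ifnb1 had 0 to 1 in RIP1i and 0 to 3 in DMSO. The other 14 of 16 genes were tested, 5 fitted higher and 9 lower, where 49% of all tested genes were fitted lower. Their median log2 fold change was -0.042. None passed, and 1 had an unadjusted p under 0.05 in edgeR, as in DESeq2 and limma-voom, beside 6.21% of all tested genes in edgeR. That was Stat2, a subunit of the interferon-activated transcription factor, at 138 ± 8.97 CPM in RIP1i and 152 ± 6.73 CPM in DMSO (SD, n = 3 each), a log2 fold change of -0.14 ± 0.058 (SE, edgeR adjusted p = 0.777). Irf8, a lineage factor of myeloid cells, had -0.092 ± 0.040, Irf9, the partner of STAT2, -0.094 ± 0.057, and Irf7, itself induced by interferon, -0.29 ± 0.18.

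Cxcl16 had 13083, 11989 and 13753 counts in RIP1i and 13269, 12239 and 13746 counts in DMSO. In CPM these were 324, 285 and 332 against 298, 305 and 304, so RIP1i replicate 2 lay below every DMSO library and the other RIP1i libraries above them. Means were 314 ± 25.4 CPM in RIP1i and 302 ± 3.39 CPM in DMSO (SD, n = 3 each), a log2 fold change of 0.054 ± 0.061 (SE) with an edgeR adjusted p of 0.892. The 95% interval ran from -0.088 to 0.20, a fold of 0.941 to 1.15. Without RIP1i replicate 2 the value was 0.11 and without RIP1i replicate 3 it was 0.0069; without both libraries of extreme stromal level it was 0.11 (edgeR adjusted p = 0.602). Zmynd15, which overlaps Cxcl16 on the opposite strand, had 7.41, 5.87 and 7.05 CPM in RIP1i and 7.65, 7.91 and 6.85 CPM in DMSO, so the groups overlapped. Since the strand setting is not given, reads of the overlap cannot be assigned.

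**Figure D4:**
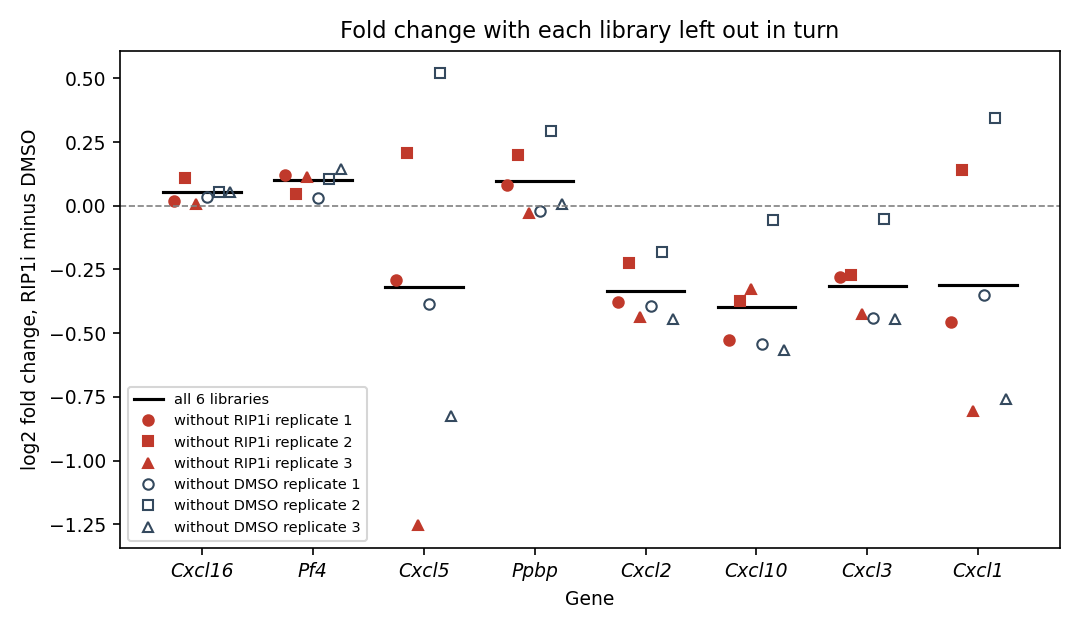
Log2 fold change of RIP1i against DMSO for the 8 tested genes with all 6 libraries (black line) and with each library left out in turn (filled symbols for a RIP1i library, open symbols for a DMSO library). Cxcl16 and Pf4 keep within 0.0069 to 0.15, while Cxcl5 runs from -1.25 to 0.52 and Cxcl1 from -0.80 to 0.34.

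Proteases and binding partners that act on CXC proteins were also expressed. All 9 passed the filter, 7 fitted higher and 2 lower, with a median log2 fold change of 0.082, and none passed the test. Without both libraries of extreme stromal level, 5 were fitted higher and 4 lower. With all 6 libraries, 49% of all tested genes were fitted lower, and 6.21% had an unadjusted p under 0.05 in edgeR. Mmp12, the macrophage elastase gene, was the 1 gene of the list with an unadjusted p under 0.05 in edgeR, as in DESeq2 and limma-voom. Its log2 fold change was 0.18 ± 0.076 (SE, edgeR adjusted p = 0.777). Adam17, a sheddase, stood at 290.0 ± 13.5 CPM in RIP1i and 274 ± 4.23 CPM in DMSO (SD, n = 3 each), a log2 fold change of 0.082 ± 0.045. Mmp9, the gelatinase B gene, had the largest difference of the list and ran the other way, at 1.66, 1.35 and 1.62 CPM in RIP1i and 1.66, 1.67 and 3.34 CPM in DMSO. Every RIP1i library was below every DMSO library, by under 0.01 CPM at the nearest, and DMSO replicate 3 stood alone at the top. The log2 fold change of Mmp9 was -0.53 ± 0.29 (SE, edgeR adjusted p = 0.793). In CPM the groups did not overlap for 3 of the 9 genes, beside 13.5% of all tested genes. These were Mmp9, and Mmp12 and Adam17 with every RIP1i library higher. Adam10, the sheddase that releases CXCL16 from the membrane, was not among the 4 genes of smallest p but is shown for this role, at 95.7 ± 10.2 and 89.4 ± 4.38 CPM in RIP1i and DMSO. Srgn, whose proteoglycan binds PF4 in granules, had 0.25 ± 0.16 (SE) on the log2 scale.

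The NF-kB inputs of Cxcl1, Cxcl2, Cxcl3 and Cxcl5, from receptors to feedback genes, were all expressed and close between groups. Among all tested genes, 49% were fitted lower and 6.21% had an unadjusted p under 0.05 in edgeR. All 17 inputs were tested, 10 fitted higher and 7 lower, with a median log2 fold change of 0.0075. Of these, 0 had an unadjusted p under 0.05 in edgeR, DESeq2 or limma-voom. The genes of smallest p were Nfkb2 at 0.10 ± 0.048 and Relb at 0.18 ± 0.085, which encode subunits of the noncanonical branch, the inhibitor gene Nfkbia at 0.078 ± 0.039 and the receptor gene Tlr4 at 0.16 ± 0.091. Ripk1, the gene of the inhibited kinase, is named as the target and not for its p, and had a log2 fold change of -0.0032 ± 0.048; its transcript level is no check on an inhibitor of the enzyme.

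Of 8 genes that act on the decay of chemokine mRNA, all were tested, 3 fitted higher and 5 lower, with a median of -0.038, and none passed. Over all tested genes, 49% were fitted lower and 6.21% had an unadjusted p under 0.05 in edgeR. The 1 gene of the list with such a p in edgeR, as in DESeq2 and limma-voom, was Zc3h12a, the ribonuclease Regnase-1. It stood at 20.2 ± 0.470 CPM in RIP1i and 22.6 ± 1.27 CPM in DMSO (SD, n = 3 each). Its log2 fold change was -0.16 ± 0.057 (SE, edgeR adjusted p = 0.777). Zfp36l1, an AU-rich element binding protein gene, had -0.095 ± 0.056, Zc3h12c, a relative of Zc3h12a, had 0.14 ± 0.096, and Elavl1, whose protein stabilises such mRNAs, had 0.083 ± 0.056.

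The rest of the CXC family was undetected or varied with the stromal and against the neutrophil markers over libraries. Cxcl13, Cxcl15 and Cxcl17 had 0 counts in every library, which allows levels of up to 0.0663 to 0.0747 CPM, and Cxcl11 had at most 1 count. Cxcl12, a stromal chemokine that holds blood progenitors in marrow, was at 4.21, 1.38 and 2.10 CPM in RIP1i and 2.27, 5.82 and 1.28 CPM in DMSO. It was highest in DMSO replicate 2, and the groups overlapped. Its level had r = 0.93 with the stromal marker level over 6 libraries, and 0.89 without RIP1i replicate 2 and DMSO replicate 3. Cxcl14 was at 1.36, 0.546 and 0.942 CPM in RIP1i and 0.675, 1.74 and 0.420 CPM in DMSO, with r = 0.89, or 0.79 without the same pair. With the neutrophil marker level Cxcl12 had r = -0.64 and Cxcl14 -0.74. Without RIP1i replicate 3 and DMSO replicate 2 these were -0.84 and -0.71. Cxcl12 and Cxcl14 were tested and neither had an unadjusted p under 0.05 in edgeR, with log2 fold changes of -0.28 ± 0.59 and 0.020 ± 0.54 (SE). Without both libraries of extreme stromal level these were 0.82 ± 0.38 and 1.06 ± 0.33 (SE). In edgeR the unadjusted p were 0.0687 and 0.0149 and the adjusted p 0.604 and 0.602. Both genes had their highest DMSO level in DMSO replicate 2 and their lowest RIP1i level in RIP1i replicate 2. The rise was therefore bound to follow, and these p-values do not measure an effect of RIP1i.

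Receptors of these ligands were mostly weak. Cxcr4, the receptor of CXCL12, was the highest per length at 39.5 ± 6.54 FPKM in RIP1i and 37.6 ± 3.68 FPKM in DMSO (SD, n = 3 each). Cxcr2, the receptor shared by the neutrophil attractants and also one of the neutrophil markers, was at 0.973 ± 0.313 FPKM in RIP1i and 0.957 ± 0.291 FPKM in DMSO. Cxcr1 was at 0.653 ± 0.112 FPKM in RIP1i and 0.600 ± 0.0608 FPKM in DMSO. Cxcr3, the receptor of CXCL9 and CXCL10, had 10 to 11 counts in RIP1i and 9 to 25 in DMSO. Cxcr6, the receptor of CXCL16, had 0 to 2 counts in each group and was not tested, like Cxcr5, Ackr1 and Ackr3. Of the 4 tested receptors 3 were fitted higher and 1 lower, or 1 higher and 3 lower without both libraries of extreme stromal level. None had an unadjusted p under 0.05 in edgeR, DESeq2 or limma-voom. The shares over all tested genes were 49% fitted lower and 6.21% with an unadjusted p under 0.05 in edgeR.

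The genes most like each chemokine over the 6 libraries were taken among 11021 tested genes whose mean level reached 1 CPM, by Pearson's r of log2 CPM. With only 6 libraries high values are common, and 679 genes had r over 0.9 with Cxcl1 and 730 with Cxcl5. The nearest to Cxcl1 were Setdb2, Iba57 and Vgll3, with r from 0.997 to 0.999, and Setdb2 was also among the 3 nearest to Cxcl5, with D17H6S53E and Ccdc148. Cxcl2 was nearest to Map2k7, Oplah and Abca7, and Cxcl3 to Ddit4, Bag6 and Fam234a. The nearest to Cxcl10 were Slx4, Acad10 and Tgtp2, with r from 0.98 to 0.99, and 67 genes had r over 0.9 with it. For Cxcl16 they were Nqo2, Emb and Ensa, for Pf4 Acad9, Espn and Hat1, and for Ppbp Repin1, Sdhc and Trmt112.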

How the data were processed

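The authors deposited raw read counts and FPKM values per gene for the 6 libraries, with 2 decimals in FPKM. The submitters' processing notes name the build mm10, STAR (2.5.3a), featureCounts and Subread (1.4.6-p3), beside CASAVA (1.8.4) and DESeq2 (1.14.0). Annotation, strandedness and the handling of multiply matching reads were not given in the sources used here. Genes were filtered with filterByExpr (minimum count 10, minimum total 15), which left 14857 of 52459, and scaled by TMM (factors 0.978 to 1.01). RIP1i was compared with DMSO by edgeR 4.0.16's quasi-likelihood test (R 4.3.3) as a 2-sided test without covariates, Benjamini-Hochberg adjusted over all tested genes. The fit was tested on simulated data. Intervals are 95%. DESeq2 1.42.0, limma-voom (limma 3.58.1), limma-trend on the log2 of FPKM plus a pseudocount of 1 or 0.1, other scalings and filters, a replicate block and leaving out libraries were alternatives. Chemokine genes, lists and markers were chosen with earlier results of these data known. Named genes were the chemokines, at most 4 genes of smallest p and the untestable ones of each list, and the 3 genes nearest in pattern; exceptions are stated, and list genes named for a role or to show low counts are descriptions. Spelled motifs were matched by letters. Levels are mean ± SD (n = 3 libraries a group) unless single values are given, and depth ran from 40264902 to 44862310 counts a library.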

Additional observations from a re-analysis of the deposited data

How the results depend on the processing

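None of the chemokines was called under any alternative run, with 0 calls in edgeR after other scalings, no filter, a filter of 1 CPM in 3 libraries, a threshold of 0.1, the replicate block or leaving out any library, and 0 calls in limma-voom and the FPKM fits. DESeq2 also called 0, but gave an adjusted p for Cxcl16 and Pf4 alone and none for the other 6. With each library left out in turn the log2 fold change ran from -0.80 to 0.34 for Cxcl1, from -1.25 to 0.52 for Cxcl5 and from -0.030 to 0.29 for Ppbp, the 3 genes whose sign turned, and the other 5 kept theirs. Leaving out both libraries of extreme stromal level, an alternative chosen after seeing the data, gave 0.80 for Cxcl1 and 1.05 for Cxcl5. Under it the list medians were -0.059 for interferon inputs, 0.023 for NF-kB inputs, -0.054 for mRNA decay and 0.11 for proteases and partners. These kept the sign they had with all 6 libraries. The median turned from 0.049 to -0.26 for CXC receptors and from -0.13 to 0.94 for the other CXC chemokine genes. For the 8 tested chemokines it turned from -0.31 to 0.082. In all, 8 of the recomputed fold changes turned sign and 128 did not. Without a filter, Cxcl9 was fitted at -1.69 (interval -2.99 to -0.38, edgeR adjusted p = 0.805, unadjusted p = 0.0151). In the level order, 2 genes changed rank with CPM in place of FPKM and 2 with the median in place of the mean; these were Cxcl10 with Cxcl3 and Cxcl3 with Cxcl1, and the cause was the unit or summary itself. Deviations of same-numbered libraries from their group means had r of 0.0058, -0.53 and -0.48. RIP1i replicate 2 correlated best with DMSO replicate 3 (r = 0.60). Whether equal replicate numbers marked pairs cannot be told from these values, because the libraries also differed in stromal and neutrophil markers. Depth limited Cxcl9, with 1 to 15 counts a library.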
